A study of Homo sapiens with 4 samples.

Results

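The transcripts of 10 genes of bone morphogenetic protein (BMP) signaling were followed in PANC-1, a human line established from a ductal carcinoma of the pancreas, after knockdown of SIRT1, an NAD-dependent protein deacetylase. The genes are the ligand BMP4, the secreted antagonist NOG, the pseudoreceptor BAMBI, the receptors BMPR1A, BMPR2 and ACVR1, the signal-carrying SMAD5 and SMAD9, and the inhibitory SMAD6 and SMAD7. They are 10 of the 16878 genes in each expression table and were matched by symbol. They were chosen for their roles and with their measured change after knockdown already known, so their differences between the groups are given below as a description, without a test. The study compared 2 Control libraries with 2 siSIRT1 libraries, from cells taken 48 h after transfection, in 1 cell line. All 4 libraries share the PANC-1 background, and the labels say only that the first group is Control, without the agent it received. The study lists a single siRNA under the name siSIRT1, and the labels do not say that it was the one used for these libraries. Whether the libraries of a group came from separate cultures is not stated, so p-values measure the spread between these libraries, which may be technical.

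BMPs are secreted ligands that bind pairs of type I and type II serine/threonine kinase receptors, and the type I receptor phosphorylates SMAD1, SMAD5 and SMAD9, which enter the nucleus with SMAD4 and act on promoters. The signal is held in check at each level, by antagonists such as noggin that trap the ligand outside the cell, by BAMBI, which resembles a type I receptor but has no kinase, and by SMAD6 and SMAD7, which block receptors and SMADs and promote receptor turnover. SMAD6, SMAD7, BAMBI and the ID genes are themselves textbook targets of the BMP SMADs, and noggin is induced by BMPs in many cells. The question put to the data was whether the genes of this feedback lay on the side of a raised BMP signal after SIRT1 knockdown.

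Sequences are shown for the agent and for promoters of the feedback genes. The siRNA sense strand is printed first to show where that siRNA matches SIRT1, and its capitals mark the bases that pair with the seed (bases 2 to 8) of the guide strand.
siSIRT1: gugucaugguuCCUUUGCa
The strand matched the SIRT1 coding sequence across an exon junction, with 8 bases in exon 5 (GRCh37, chr10:69666687-69666694, plus strand) and 11 bases in exon 6 (chr10:69667803-69667813). Among the 19869 canonical protein-coding transcripts of the annotation, a full match was found in 1, that of SIRT1. The seed heptamer was present in 5164 of them (26.0%). Of the 10 genes, 2 held it, BMPR2 at 2 places and SMAD5 at 1 place, and the transcripts of BMP4, NOG, BAMBI, BMPR1A, ACVR1, SMAD6, SMAD7 and SMAD9 did not.

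The 250 bases before a transcription start are shown for SMAD6, SMAD7 and BAMBI, which are feedback inhibitors of the pathway. The bases are as RefSeq gives them on GRCh38.p14 and on the gene's own strand, and the capitals were picked once the matches had been seen. Capitals mark GTCTAGAC, the palindromic SMAD-binding element, in SMAD6, CAGAC or its reverse complement, the minimal SMAD element, in SMAD7, and GGCGCC, a GC-rich element bound by BMP SMADs, in BAMBI.
SMAD6, chr15:66701986-66702235, plus strand: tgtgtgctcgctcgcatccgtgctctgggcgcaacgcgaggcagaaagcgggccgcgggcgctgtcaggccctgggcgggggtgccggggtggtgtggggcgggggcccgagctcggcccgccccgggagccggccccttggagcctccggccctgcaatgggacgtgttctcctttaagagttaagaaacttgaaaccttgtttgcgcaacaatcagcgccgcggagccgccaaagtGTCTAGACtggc
SMAD7, chr18:48950966-48951215, minus strand: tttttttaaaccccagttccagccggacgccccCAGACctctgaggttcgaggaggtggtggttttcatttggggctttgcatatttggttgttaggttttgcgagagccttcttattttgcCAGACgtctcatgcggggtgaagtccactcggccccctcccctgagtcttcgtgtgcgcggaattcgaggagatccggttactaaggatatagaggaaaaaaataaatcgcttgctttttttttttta
BAMBI, chr10:28677271-28677520, plus strand: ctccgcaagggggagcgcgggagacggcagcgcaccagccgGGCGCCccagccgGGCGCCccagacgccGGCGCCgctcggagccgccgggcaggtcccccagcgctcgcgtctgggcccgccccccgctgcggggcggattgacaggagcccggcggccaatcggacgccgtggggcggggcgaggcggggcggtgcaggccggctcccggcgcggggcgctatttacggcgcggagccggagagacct
The motifs were searched on both strands in windows from 250 bases before to 50 bases after each start, and none of them contains another. The 10 genes had 15 such windows, covering 9 genes. The palindrome GTCTAGAC was present in 71 of 35116 windows of all genes (0.202%) and in 1 window of the set, that of SMAD6, where it begins 12 bases before the start. GGCGCC was present in 19.2% of all windows and in 5 of the 15 windows of the set. These were 1 window each of BMP4, BAMBI, BMPR2, ACVR1 and SMAD5, with 3 matches in BAMBI. The short CAGAC was present in 45.3% of all windows and in 10 of the 15. SMAD7 had 3 windows, of which the first is printed, with 2 matches of CAGAC, against 1 and 0 in the others. A match describes the letters of the window and does not show that a SMAD binds there.

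Depth, estimated from the steps that 1 read makes in the low values, was 9150000 and 9170000 reads in Control and 8620000 and 9030000 in siSIRT1. The knockdown was seen in both siSIRT1 libraries: SIRT1 measured 10.5 and 10.3 FPKM (fragments normalized to transcript length and library size) under Control, against 1.80 and 2.05 FPKM after knockdown, 18.6% of Control (log2 fold change -1.96 ± 0.11 SE, limma adjusted p = 1.33e-05). Keratin markers of a ductal line summed to 3965 to 5056 FPKM, with 4 of 5 above 1 FPKM in every library and KRT17 at 0 to 2.06 FPKM, while 3 of 3 endothelial markers and 2 of 2 measured acinar or endocrine markers were under 1 FPKM in every library. Summed leukocyte markers were 19.8 to 25.0 FPKM in all 4 libraries, most of it from LYZ (15.3 to 19.5 FPKM). CD14 measured 3.17 to 5.49 FPKM and PTPRC 0.97 to 1.29 FPKM, and CD3E was not measured. Summed fibroblast markers were 4.10 and 4.14 FPKM under Control, against 18.9 and 19.5 FPKM after knockdown, nearly all of it from COL3A1, with COL1A2, LUM and DCN under 1 FPKM in every library. In bulk RNA, a change in the number of cells that express a gene and a change in RNA per cell cannot be told apart.

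Log2 fold changes below are siSIRT1 minus Control on log2(FPKM + 1), a scale that shrinks the differences of genes at low levels, with the standard error (SE) of a limma fit over the 12191 genes that averaged 1 FPKM or more. In that fit 37.1% of genes had an adjusted p under 0.05, 24.0% higher and 13.1% lower in siSIRT1 (2930 and 1591 genes, or 2023 and 2053 genes with median-of-ratios scaling), and in 69.0% of genes the groups did not overlap. Of the 10 genes, 9 entered the fit and BAMBI did not. Of these 9, 4 were under the threshold, BMP4, SMAD6 and SMAD7 on the higher side and NOG on the lower side. SMAD9 entered only through its siSIRT1 libraries, its Control mean being under 1 FPKM. Since the genes were chosen on this contrast, the count is set beside the share over all genes and nothing is read from it.

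In Control cells the 10 genes spanned a wide range of levels. FPKM is scaled to transcript length, so it can be compared between genes. BMP4 was the highest at 23.0 FPKM, above 74.1% of the genes in the fit. ACVR1 (17.9 FPKM), NOG (15.6), BMPR2 (14.1) and BMPR1A (11.9) followed. The ranges of NOG (15.1 to 16.1 FPKM) and BMPR2 (13.5 to 14.7 FPKM) lay close together without overlap. SMAD5 stood at 8.42 FPKM, and the inhibitory SMAD7 and SMAD6 stood at 5.28 and 5.06 FPKM with overlapping libraries. SMAD9 (0.87 FPKM) and BAMBI (0.135 FPKM) were near the floor. In siSIRT1 cells SMAD6 moved from the eighth place in this order to above NOG, BMPR2, BMPR1A and ACVR1 by mean, although BMPR2 reached 17.0 FPKM in 1 library, within the SMAD6 range.

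**Figure D1:**
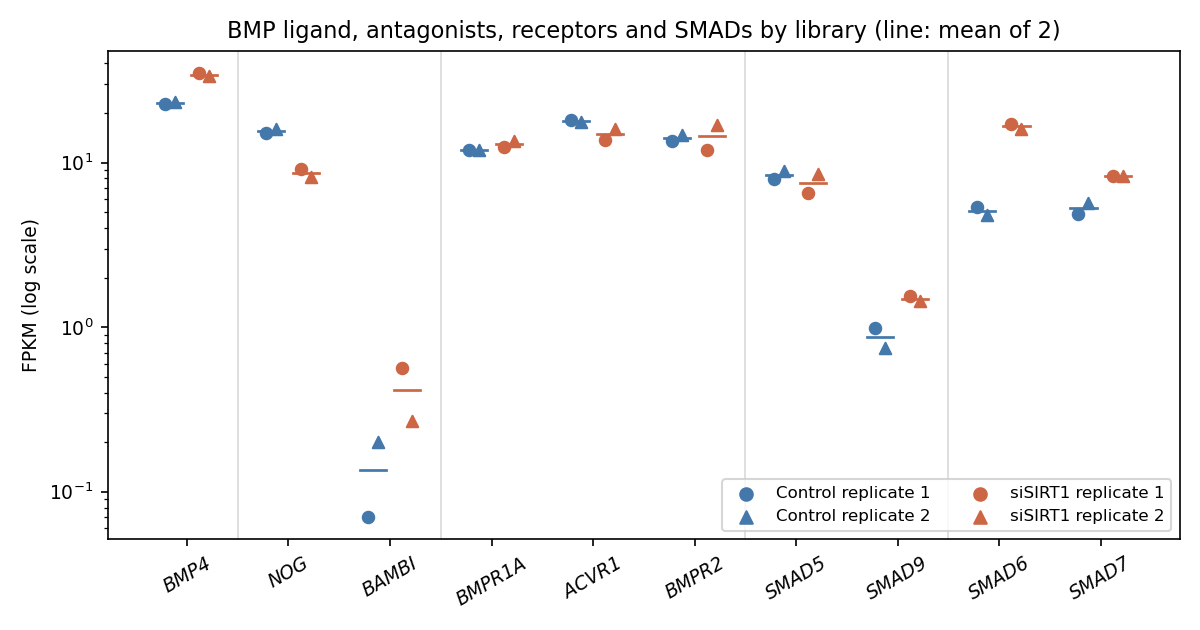
FPKM (log axis) of the 10 BMP pathway genes in the 4 libraries, Control in blue and siSIRT1 in red, with circles for replicate 1, triangles for replicate 2 and lines at group means. BMP4, BAMBI, BMPR1A, SMAD9, SMAD6 and SMAD7 lie higher in both siSIRT1 libraries, NOG and ACVR1 lie lower, and BMPR2 and SMAD5 overlap.

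The ligand was higher and its antagonist lower after SIRT1 knockdown. BMP4 (Entrez gene 652, GRCh37 chr14:54416454-54423543, minus strand), which drives the BMP SMADs through BMPR1A and BMPR2, reached 22.6 and 23.4 FPKM under Control, against 35.0 and 33.5 after knockdown. Mean levels were 23.0 ± 0.559 and 34.3 ± 1.07 FPKM (SD, n = 2 each), a ratio of 1.49 and a log2 fold change of 0.56 ± 0.07 SE, from about 382 and 397 reads against 559 and 560. The groups were well apart compared with the spread within each. BMP4 ranked 833 from the top among the 12191 genes.

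NOG, which encodes noggin, a secreted protein that binds BMP4 and keeps it from its receptors, moved the other way. NOG (Entrez gene 9241, chr17:54671060-54672972, plus strand, a single exon) measured 15.1 and 16.1 FPKM under Control, against 9.14 and 8.13 FPKM after knockdown. Mean levels came to 15.6 ± 0.672 and 8.64 ± 0.714 FPKM (SD, n = 2 each), a log2 fold change of -0.79 ± 0.09 SE, from about 254 and 270 reads against 144 and 135. The siSIRT1 mean was 55.3% of Control, and NOG ranked 321 from the bottom. NOG was thus on the opposite side from the inhibitory SMADs of the set.

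The pair can be read within each library, where the scaling between libraries cancels. The ratio of BMP4 to NOG was 1.49 and 1.45 under Control, against 3.83 and 4.12 after knockdown. It was thus 2.70-fold higher after knockdown, with 2.57 to 2.84 over the pairs of libraries.

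BAMBI, the kinase-free decoy of the type I receptors, was barely detected. BAMBI (Entrez gene 25805, chr10:28966450-28971861, plus strand) measured 0.07 and 0.20 FPKM under Control, against 0.56 and 0.27 FPKM after knockdown, which corresponds to about 1, 3, 8 and 4 reads. With 4 reads against 12, the depth-adjusted ratio was 3.11, and its exact 95% interval from counting error alone ran from 0.944 to 13.2. Both siSIRT1 libraries were above both Control libraries, but so few reads do not settle whether BAMBI differed.

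The receptors showed small differences. BMPR1A (Entrez gene 657, chr10:88516376-88687726, plus strand), a type I receptor for BMP4, measured 11.94 and 11.87 FPKM under Control, against 12.4 and 13.5 FPKM after knockdown, with a log2 fold change of 0.11 and a 95% interval from -0.09 to 0.31. Pseudogenes of BMPR1A exist and the assignment of shared reads is not stated, so its level is uncertain to that extent. BMPR2 (Entrez gene 659, chr2:203241050-203432472, plus strand), the type II receptor, measured 13.5 and 14.7 FPKM under Control, against 11.9 and 17.0 FPKM after knockdown, so the Control libraries lay between the siSIRT1 libraries. Its log2 fold change was 0.01, with an interval from -0.32 to 0.34, and its sign turned under several other settings. The ratio of BMPR1A to BMPR2 overlapped between the groups, at 0.884 and 0.807 in Control against 1.04 and 0.795 in siSIRT1.

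ACVR1 (ALK2, Entrez gene 90, chr2:158592958-158732842, minus strand), a type I receptor used mainly by BMP6 and BMP7, measured 18.0 and 17.7 FPKM under Control, against 13.8 and 15.9 FPKM after knockdown. Both siSIRT1 libraries were lower, at 83.2% of Control by mean. Its log2 fold change of -0.25 ± 0.09 SE (95% interval -0.46 to -0.05) lay outside the threshold in the fit as reported. It ran from -0.34 to -0.25 over the 11 other settings and from -0.35 to -0.16 with 1 library left out. No receptor of the set was more than 1.5-fold apart between the group means.

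The signal-carrying SMAD5 varied widely between the siSIRT1 libraries, and SMAD9 was weakly expressed. SMAD5 (Entrez gene 4090, chr5:135468534-135518421, plus strand) measured 7.93 and 8.91 FPKM under Control, against 6.56 and 8.46 FPKM after knockdown, and the groups overlapped (log2 fold change -0.15, 95% interval -0.45 to 0.14). An antisense gene, SMAD5-AS1, overlaps it, and the use of strand in counting is not stated. SMAD9, which is both a BMP SMAD and, in some settings, a BMP target, measured 0.99 and 0.75 FPKM under Control, against 1.54 and 1.44 FPKM after knockdown (Entrez gene 4093, chr13:37418968-37494375, minus strand). The ratio of means was 1.71, from about 50 and 38 reads against 73 and 71. The log2 fold change was 0.42 ± 0.14 SE and lay outside the threshold in the fit as reported. It ran from 0.35 to 0.72 over the 11 other settings.

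The siSIRT1 libraries differed in their long transcripts, and BMPR2, SMAD5, BMPR1A and SMAD9 have transcripts over 5000 bases. Replicate 2 over replicate 1 of siSIRT1 was 1.44 for BMPR2 (transcript of 12068 bases), 1.29 for SMAD5 (7012 bases), 1.16 for ACVR1 (3332 bases) and 1.09 for BMPR1A (6417 bases). For SMAD9 (5558 bases) the ratio was 0.935, on the other side. Over all genes of the fit the median of this ratio was 1.09 for transcripts over 5000 bases and 0.939 for those under 2000 bases, against 1.03 and 0.981 between the Control libraries. For those of 2000 to 5000 bases, the class of ACVR1, it was 0.998 against 1.0 between the Control libraries. The part of this in the receptor and SMAD5 values was not tested. With each library's trend on length removed, the log2 fold change was 0.05 for BMPR2, -0.16 for SMAD5 and -0.33 for ACVR1. Median-of-ratios scaling, which does not use length, gave -0.34 for ACVR1.

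Both inhibitory SMADs were higher in siSIRT1, and SMAD6 had the largest difference of the 9 fitted genes. SMAD6 (Entrez gene 4091, chr15:66994574-67075187, plus strand), which preferentially blocks BMP type I receptors and SMAD1, measured 5.33 and 4.79 FPKM under Control, against 17.2 and 16.1 FPKM after knockdown. Group means were 5.06 ± 0.382 and 16.6 ± 0.75 FPKM (SD, n = 2 each), 3.28-fold apart, with a log2 fold change of 1.54 ± 0.10 SE from about 183 and 165 reads against 554 and 545. It ranked 32 from the top among the 12191 genes. Its promoter window is the one in the set with the palindromic SMAD element shown above.

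SMAD7 (Entrez gene 4092, chr18:46446223-46477335, minus strand), which blocks both BMP and TGF-beta receptors, moved in the same direction by less. It measured 4.85 and 5.71 FPKM under Control, against 8.31 and 8.25 FPKM after knockdown. Group means were 5.28 ± 0.608 and 8.28 ± 0.0424 FPKM (SD, n = 2 each), with a ratio of 1.57 and a log2 fold change of 0.57 ± 0.11 SE. The ratio of SMAD6 to SMAD7 within a library was 1.10 and 0.839 under Control, against 2.06 and 1.95 after knockdown.

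The balance of the SMAD classes differed between the groups, with the sum of the inhibitory genes apart and that of the signal-carrying genes overlapping. By gene, SMAD5 overlapped, while SMAD1 and SMAD9 were higher in both siSIRT1 libraries. The groups did not overlap in 69.0% of all genes. SMAD1, SMAD5 and SMAD9 summed to 13.2 and 13.2 FPKM under Control, against 12.6 and 14.6 FPKM after knockdown. SMAD6 and SMAD7 summed to 10.2 and 10.5 FPKM under Control, against 25.5 and 24.3 FPKM after knockdown. The ratio of inhibitory to signal-carrying SMADs was 0.769 and 0.797 under Control, against 2.02 and 1.67 after knockdown, a 2.36-fold difference.

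**Figure D2:**
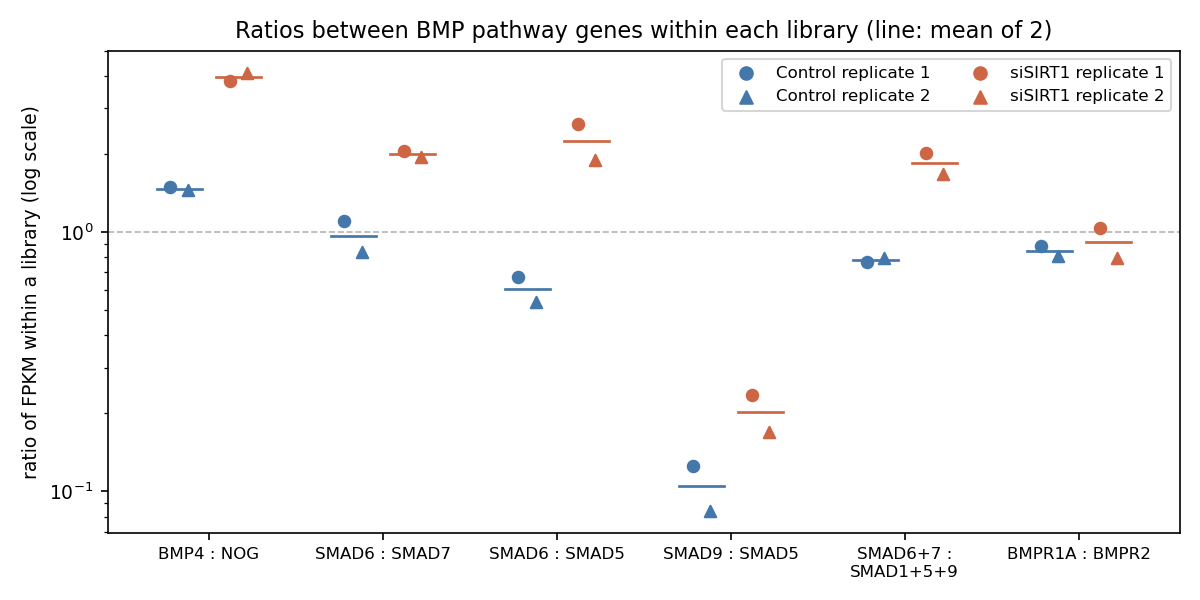
Ratios of FPKM between BMP pathway genes within each library (log axis, dashed line at 1), Control in blue and siSIRT1 in red, circles and triangles for replicates 1 and 2, lines at group means. BMP4 to NOG goes from 1.45 and 1.49 to 3.83 and 4.12, the inhibitory to signal-carrying SMADs from below 1 to 1.67 and 2.02, and BMPR1A to BMPR2 overlaps.

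The genes closest in pattern to the most changed members were found by the distance between centred log2(FPKM + 1) values over the 4 libraries. For SMAD6 they were IGFBP7 (distance 0.0745), RASSF1 (0.0927) and DLX2 (0.146). For NOG they were RFK (0.0433), TXNDC12 (0.0436) and FZD7 (0.0609), and for SMAD7 SAR1A (0.0164), C9orf40 (0.0336) and RRAS2 (0.0363). With 4 libraries in 2 groups, such a distance says little beyond a like difference between the groups.

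The rest of the pathway, listed by role, was tested gene by gene. Of 89 other genes listed, 54 were expressed enough to test, and 18 passed (33.3%, against 37.1% of all genes), 13 higher and 5 lower. Without Control replicate 1 the number was 12. The median log2 fold change over all genes was 0.07, with 90% of genes between -0.58 and 0.63. Of the 18, 8 were target genes, 5 genes of SMAD turnover and repression, 4 antagonists and 1 a ligand, and the receptor and SMAD lists held no gene that passed.

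Among 16 other BMP ligands, 5 were tested and 1 changed, with a list median of 0.09. BMP6, a ligand that signals through ACVR1, fell from 20.1 and 21.4 FPKM to 12.5 and 13.2 FPKM (log2 fold change -0.66 ± 0.08 SE, adjusted p = 0.00047). The fall of BMP6 lies opposite to the direction of BMP4. BMP7, a ligand related to BMP6, measured 7.17 and 6.97 FPKM under Control, against 8.37 and 8.54 FPKM after knockdown and did not pass (adjusted p = 0.0957, a gene named after its values were seen).

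Among 17 other antagonists, 6 were tested, and 2 rose and 2 fell, with a list median of 0.09. NBL1 (DAN), a secreted BMP antagonist, fell from 108 and 99.5 FPKM to 31.5 and 28.2 FPKM (log2 fold change -1.76 ± 0.07 SE, adjusted p = 2.8e-06). CRIM1, a transmembrane protein that binds BMPs, fell from 116 and 118 FPKM to 71.5 and 89.3 FPKM (-0.54, adjusted p = 0.00271). FSTL3, a follistatin-like protein that binds activin and some BMPs, rose from 24.4 and 22.4 FPKM to 44.3 and 42.8 FPKM (0.87, adjusted p = 6.68e-05). TWSG1, which can help or hinder BMPs, rose by less (0.32, adjusted p = 0.025) and lost the call in 6 of 11 other settings and without Control replicate 1, Control replicate 2 or siSIRT1 replicate 2 (adjusted p = 0.172, 0.0551 and 0.0918). The tested antagonists thus moved in both directions, and the most abundant of them under Control, NBL1 and CRIM1, were lower together with NOG. Another 9 antagonists were measured but lay below the filter, so their direction was not tested. After knockdown FSTL3 (mean 43.5 FPKM) stood above NBL1 (29.9 FPKM).

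Of 11 other receptors and co-receptors 4 were tested and 0 passed the limma test (also 0 at an unadjusted p under 0.05), with log2 fold changes from -0.07 to 0.10. Of 9 other SMADs and partners 7 were tested and 0 passed the limma test, with the same count at an unadjusted p under 0.05. SMAD1, the third BMP SMAD, measured 4.32 and 3.51 FPKM under Control, against 4.50 and 4.65 FPKM after knockdown (log2 fold change 0.19, adjusted p = 0.283). SMAD4, the common partner of all signaling SMADs, measured 2.52 and 3.21 FPKM under Control, against 3.50 and 3.76 FPKM after knockdown (0.27, adjusted p = 0.158).

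Of 22 genes of SMAD turnover and repression, all were tested, and 3 rose and 2 fell, with a median of -0.01. CTDSP2, a phosphatase that acts on SMADs, rose by 0.38 (adjusted p = 0.00183). SKIL, a SMAD repressor and TGF-beta feedback gene, rose by 0.44 (adjusted p = 0.0261), and SKI, its relative, by 0.21 (adjusted p = 0.0426), with SKI passing in 4 of 11 other settings and SKIL in 8. TOB2 (-0.40, adjusted p = 0.00893) and HIPK2 (-0.50, adjusted p = 0.0273), a kinase that acts as a BMP corepressor, fell. With 1 library left out, SKI lost its call whichever library it was (adjusted p = 0.0592 to 0.264), HIPK2 without Control replicate 1, Control replicate 2 or siSIRT1 replicate 1 (0.0835, 0.106 and 0.096), SKIL without Control replicate 1 or siSIRT1 replicate 2 (0.127 and 0.101) and TOB2 without Control replicate 1 (0.0652).

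Among the lists, that of genes commonly induced by the BMP SMADs held the widest differences. Of 14 listed, 10 were tested, and 8 rose and 0 fell by the limma test (9 and 0 at an unadjusted p under 0.05). Over all genes 24.0% rose and 13.1% fell. The median log2 fold change was 1.38 against 0.07 over all genes. The lists were chosen with earlier results of these data known, so this count and median may owe to that choice. ID2 and ATOH8 entered the fit only through siSIRT1, their Control means being under 1 FPKM, so they had to differ to be counted. The ID genes encode helix-loop-helix proteins without a DNA-binding region that hold differentiation factors in check. ID1 rose from 101 and 93.6 FPKM to 498 and 463 FPKM (log2 fold change 2.29 ± 0.07 SE, adjusted p = 3.27e-07). ID3 rose from 7.54 and 6.98 FPKM to 143 and 130 FPKM (4.06 ± 0.07 SE, adjusted p = 5.31e-08). ID2 rose from 0.34 and 0.25 FPKM to 17.8 and 18.1 FPKM (3.87, adjusted p = 3.69e-07). ID4 stayed under 1 FPKM in every library and was not tested, with 0 in both Control libraries and 0.12 and 0.21 FPKM in siSIRT1.

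ATOH8, a helix-loop-helix factor induced by BMPs, rose from 0.44 and 0.39 FPKM to 6.63 and 5.53 FPKM (2.32, adjusted p = 1.44e-05), and DLX2, a homeobox factor, rose from 3.01 and 3.03 FPKM to 11.52 and 11.45 FPKM (1.63, adjusted p = 1.87e-05). GATA2 (1.13), JUNB (0.75) and MSX2 (0.46) also rose, with adjusted p of 7.11e-05, 0.000414 and 0.00843, and are named after their values were seen. MSX2 lost its call without Control replicate 1 (adjusted p = 0.0685). DLX3 and GATA3 were tested and did not pass (adjusted p = 0.102 and 0.735), and HEY1, MSX1 and DLX5 were below the filter.

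The related TGF-beta branch, which uses SMAD2 and SMAD3 and shares SMAD7 as an inhibitor, was mixed. Of 9 tested components 2 rose and 2 fell (median 0.15). TGFB3 (0.79, adjusted p = 0.0039) and TGFB1 (0.33, adjusted p = 0.0115), both ligands, rose, and the receptor TGFBR2 (-0.52, adjusted p = 0.000983) and the activin subunit gene INHBB (-0.56, adjusted p = 0.000969) fell. TGFB1 lost its call without Control replicate 1 or 2 (adjusted p = 0.0519 and 0.0718), and TGFB3 entered the fit through siSIRT1, its Control mean being under 1 FPKM. Of 9 tested TGF-beta targets 4 rose and 4 fell (median 0.21). COL1A1 (2.74, adjusted p = 1.08e-07) and TGM2 (1.37, adjusted p = 6.51e-06) rose, while TGFBI (-0.74, adjusted p = 5.24e-05) fell. COL1A1 rose beside COL3A1 of the fibroblast list given above, while the other fibroblast markers, COL1A2, LUM and DCN, were under 1 FPKM in every library. Whether the BMP and TGF-beta lists differ from each other was not tested.

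**Figure D3:**
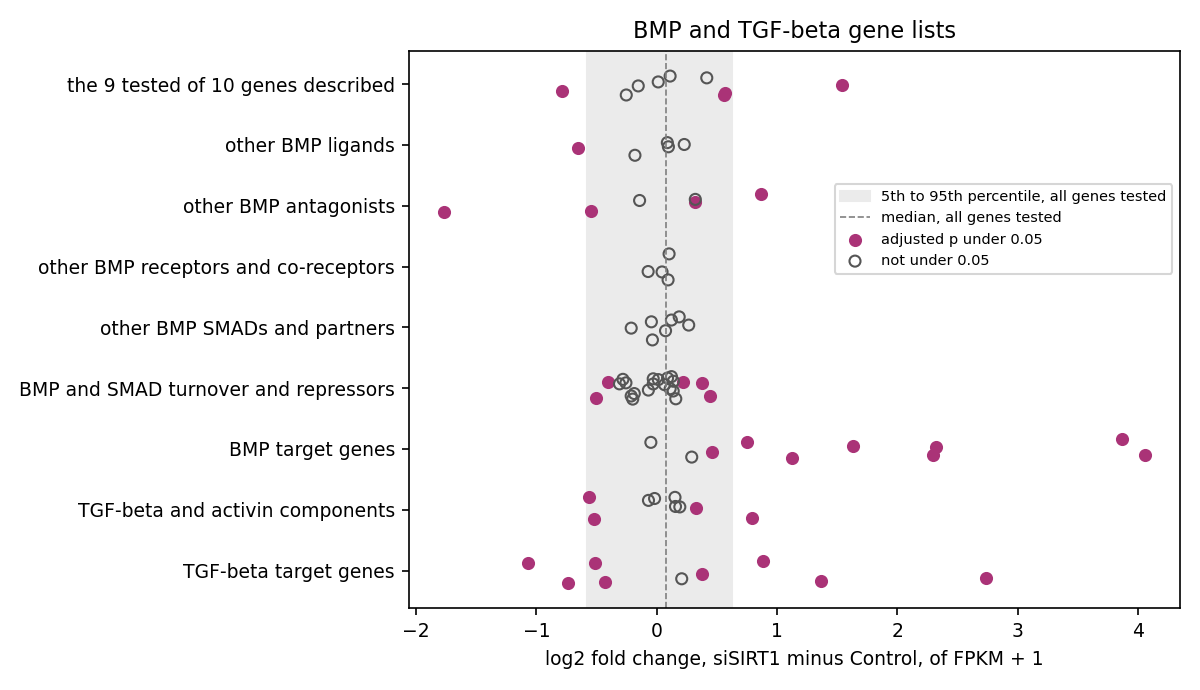
Log2 fold changes (siSIRT1 minus Control, of FPKM + 1) of tested genes by list, 1 point per gene, filled where the limma adjusted p is under 0.05 and open where it is not, with a grey band for 90% of all genes and a dashed line at their median of 0.07. The BMP target genes reach 4.06 with 8 of 10 points filled, all to the right, while receptors and SMAD partners lie within the band and TGF-beta targets fall on both sides.

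The feedback genes of the set can be set side by side. SMAD6 and SMAD7 were higher in both siSIRT1 libraries than in both Control libraries, and NOG was lower. SMAD9 and BAMBI were also higher, at low levels, with about 38 to 73 reads per library for SMAD9 and 1 to 8 for BAMBI. With the groups apart in 69.0% of all genes, and these genes chosen on this contrast, no count over them is read as an answer to the feedback question. Transcript levels alone do not measure SMAD phosphorylation, and no such readout is among the data used here.

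**Figure D4:**
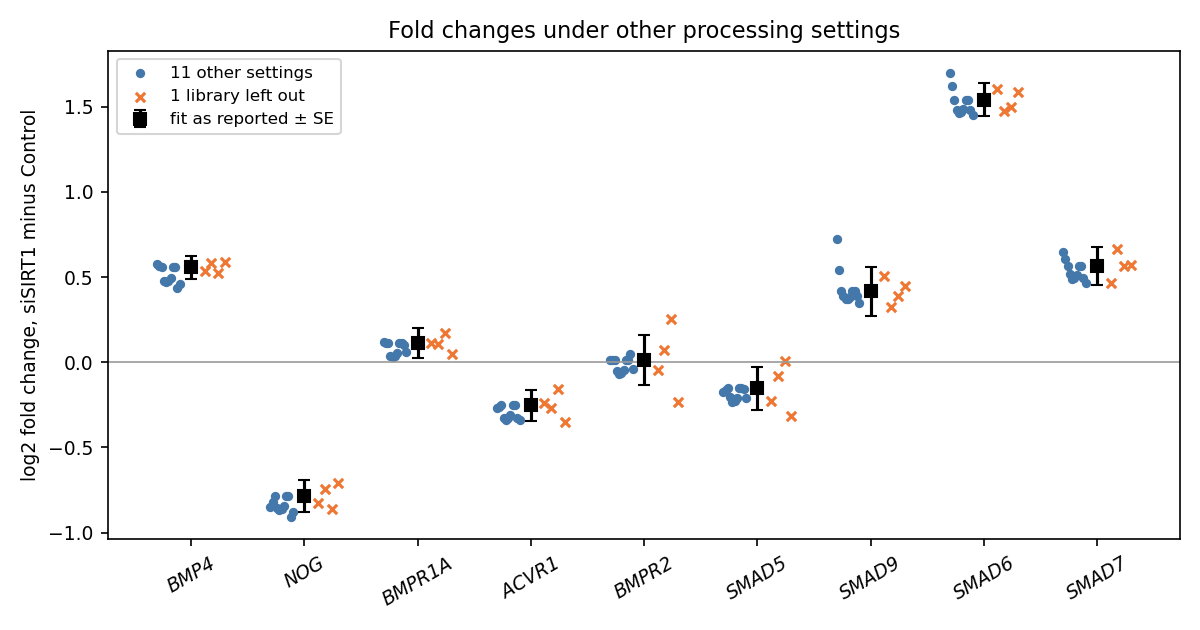
Log2 fold change of the 9 fitted genes (siSIRT1 minus Control) in the fit as reported (black squares, bars for the SE), in 11 other settings (blue points) and with 1 library left out (orange crosses). SMAD6 stays between 1.45 and 1.70 and NOG between -0.91 and -0.79 over the 11 settings, while BMPR2 lies on both sides of 0.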

How the data were processed

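RNA-seq of 4 PANC-1 libraries (2 Control, 2 siSIRT1) was analysed. For every library the authors deposited a table of FPKM, rounded to 2 decimals, for 16878 genes. The submitters' processing notes name HISAT, Bowtie2 and RSEM without role or version, and the RNA-seq build and filters are not given in the sources used here. FPKM divides by the library's total, so a change in abundant genes shifts all other values. Identifiers were matched to RefSeq symbols (16846 matched, 26 symbols had become dates). Gene spans come from GENCODE 44 on GRCh37, promoters from RefSeq on GRCh38.p14.

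Genes that averaged 1 FPKM or more were fitted with limma 3.58.1 (R 4.3.3, eBayes with trend, two-sided) on log2(FPKM + 1), with Benjamini-Hochberg adjustment over 12191 genes and a threshold of 0.05. The test was also run on simulated data with equal spread in both groups. Between the real libraries the SD of the log2 difference was 0.164 in Control and 0.205 in siSIRT1, so that run does not vouch for the calls here. Depth was estimated from 1-read steps in 111 to 141 genes per library, out of 508 single-exon candidates, and read numbers derived from it are approximate, cover counting error only and assume the canonical transcript. The named genes were SIRT1, the 10 genes, ID1 to ID4, SMAD1, SMAD4, up to 5 genes with the largest change per list among those that passed, and the 3 nearest genes to the 3 most changed members. The values of 1 gene that this rule names are not reported here. The members, lists and rules were chosen with earlier results of these data known. The alternatives tried were other pseudocounts, no filter, 4 scalings, a replicate block, no trend, removal of length or GC trends (lowess span 0.3), and leaving out each library. The siRNA strand was taken from the study's list of sequences. NOG has no window in the promoter table used.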

Additional observations from a re-analysis of the deposited data

How the results depend on the processing

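Of 38 named genes and 11 alternative settings (leaving out libraries aside), 30 genes kept their direction and side of the threshold in every setting. BMP4, NOG, SMAD6 and SMAD7 were among them, and nothing is read from their calls, since they were chosen on this contrast. The other settings turned 5 calls non-significant in places (TWSG1, HIPK2, SKI, SKIL and TGFB1) and brought 2 genes past the threshold (ACVR1 and SMAD9). These 2 genes were also chosen on this contrast, so nothing is read from that either. BMPR2 changed sign under quantile normalization (-0.054), median-of-ratios (-0.070), upper-quartile (-0.064) and equal-sum scaling (-0.045) and GC correction (-0.037), and ran from -0.23 (without siSIRT1 replicate 2) to 0.26 with 1 library left out, also below 0 without Control replicate 1 (-0.045). SMAD5 ran from -0.32 to 0.0081, the latter without siSIRT1 replicate 1. The cause was not tested.

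The number of genes past the threshold, 4521, ran from 2691 to 4608 with 1 library left out, lowest without a Control library (2744 and 2691), 1721 to 2874 higher and 970 to 1734 lower. Scaling moved the split: 2930 higher and 1591 lower became 2023 and 2053 with median-of-ratios, while the median of all genes moved from 0.07 to -0.002. With no filter 3531 genes were past it.

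Replicate numbers 1 and 2 are shared between the groups, but nothing says that they mark a pair, and same-numbered deviations correlated at 0.12. With the replicate block 5393 of the 12191 genes were past the threshold. Depth limits BAMBI most, at about 1 to 8 reads per library, and SMAD9 less, at about 38 to 73.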
